A study of Mus musculus with 2 samples.

Results

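Early immature neutrophils without lactoferrin were the neutrophil precursors of the bone marrow that already carried transcripts of the later granule and S100 genes but few or none of *Ltf*, which encodes lactoferrin. They were picked from each cell's own UMIs (unique molecular identifiers, each marking 1 captured RNA molecule). Among barcodes with at least 200 genes, a cell was a member if *Camp*, *Ngp*, *Ltf*, *Lcn2*, *S100a8* and *S100a9* together held at least 5% of its UMIs, *Ltf* under 0.1%, *Retnlg* and *Mmp8* together under 0.1%, and the hemoglobin genes under 1%. This gave 334 of 9933 cells, 174 of 6271 from the WT library and 160 of 3662 from the Cko library.

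The cells were bone marrow cells (BMCs) of mice with and without a conditional knockout of site-1 protease (S1P, gene *Mbtps1*). S1P cleaves and so activates the membrane-bound transcription factors SREBP, which drives sterol synthesis genes, and ATF6, which drives chaperones of the endoplasmic reticulum (ER). Both mice carried floxed *Mbtps1* on the C57BL/6J background and were at postnatal day 21. The WT mouse had no Cre, and in the Cko mouse the osterix-driven Osx1-GFP::Cre removed exon 2 in cells that express osterix and in their descendants. Osterix is best known from bone-forming cells, but the study also found the exon deleted in neutrophils of Cko mice, so the deletion was not limited to bone. Limb marrow was freed by crushing and collagenase, red cells were lysed, and 1 library per genotype was made with the Chromium 3′ kit. With 1 mouse each, genotype, the Cre transgene, the mouse and its sex cannot be told apart (*Xist* was listed only in the Cko library, *Ddx3y* and *Eif2s3y* only in the WT library). No test was therefore made, and every interval below is an exact 95% interval of counting error only.

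Neutrophils mature in the marrow through stages that are defined by the granules they fill. Promyelocytes make primary granule proteins such as elastase and myeloperoxidase, myelocytes turn to secondary granule proteins such as cathelicidin and lactoferrin under the transcription factor C/EBPε, and the last stages leave the cell cycle and make gelatinase and migration proteins. Granule proteins are made on the rough ER, so the stages of heavy granule synthesis depend on the translocon and on ER chaperones.

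The promoters of 3 granule genes are given because they are the genes between which the cells stand: *Ngp* (neutrophilic granule protein, on in the members, GRCm38.p6 chr9:110419558-110419807, plus strand), *Fcnb* (ficolin-B, on in the members, chr2:28084879-28085128, minus strand) and *Ltf* (held low in the members by the rule, chr9:111019042-111019291, plus strand). Each is 250 bases of RefSeq sequence, 5′ to 3′, which end just before the gene's start in *Ngp* and *Ltf*. The *Fcnb* window ends slightly inside the gene, whose annotated span reaches chr2:28084910. Capitals mark the letters TTNNGCAA on either strand, the core to which C/EBP factors are known to bind.
Ngp: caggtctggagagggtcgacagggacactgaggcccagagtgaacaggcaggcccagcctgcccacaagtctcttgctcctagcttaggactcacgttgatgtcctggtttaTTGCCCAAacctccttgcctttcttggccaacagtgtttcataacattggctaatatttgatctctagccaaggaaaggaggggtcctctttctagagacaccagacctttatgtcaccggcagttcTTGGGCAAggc
Fcnb: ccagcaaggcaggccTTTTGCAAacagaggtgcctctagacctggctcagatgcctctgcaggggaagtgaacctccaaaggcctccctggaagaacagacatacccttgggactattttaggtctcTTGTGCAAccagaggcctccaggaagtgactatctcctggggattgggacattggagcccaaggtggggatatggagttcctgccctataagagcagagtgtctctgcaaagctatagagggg
Ltf: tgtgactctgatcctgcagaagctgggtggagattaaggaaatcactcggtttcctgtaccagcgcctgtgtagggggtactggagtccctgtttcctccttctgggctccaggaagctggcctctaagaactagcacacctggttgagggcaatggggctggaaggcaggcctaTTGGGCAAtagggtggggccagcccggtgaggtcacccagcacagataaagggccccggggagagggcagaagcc
The letters stood at -138 and -11 in *Ngp*, at -235 and -123 in *Fcnb* and at -75 in *Ltf*, counted back from the end of each window. They were found in 4 of the 6 granule and S100 promoters (*Lcn2*, *Ltf*, *Ngp* and *S100a9*). Of 12 promoters of other later granule genes 2 held them (*Anxa1* and *Fcnb*), and of 10 promoters of primary granule genes none. Among 32851 promoters of the same length the share was 9.56%. These shares were not tested against each other. A match describes the sequence and does not show that a factor binds there.

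The WT library listed 7181 genes and the Cko library 6735, of which 6001 were listed in both. Each listed gene had reached at least 4 UMIs in a cell, so a gene that is not listed was not taken as 0. Members held a median of 11068 UMIs and 2157 genes in the WT and 12507 UMIs and 2206 genes in the Cko, and 1944803 and 2075869 UMIs in all. Mitochondrial genes held a median of 2.28% and 2.47% of their UMIs. Scrublet called 4 WT and 5 Cko members as doublets. None of the 28 barcodes that the libraries shared belonged to a member. *Mbtps1* had 55 UMIs in the WT and 60 in the Cko members, but a 3′ tag lies outside the deleted exon and says nothing about the deletion.

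In the WT library 2.78% of cells were members (interval 2.38 to 3.21%), and in the Cko library 4.37% (3.73 to 5.08%), a Cko/WT ratio of 1.57 (1.26 to 1.96). The order depended on the denominator. Of the cells with under 1% hemoglobin, members were 5.57% in the WT library and 5.04% in the Cko. Of all neutrophils they were 19.6% (17.0 to 22.4%) and 11.6% (9.92 to 13.3%). Cells with at least 1% hemoglobin were far more frequent in the WT library, where the other cells were 49.9% of all, against 86.8% in the Cko library.

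The values that chose the members are given as a description. The 6 genes together held a median of 16.6% of a member's UMIs in both libraries, from 5.23 to 41.1% in the WT and from 5.16 to 45.1% in the Cko. *S100a8*, a subunit of calprotectin, was the most abundant, with a median of 8.0% and 7.29%, and *Camp*, the cathelicidin precursor, held 3.41% and 3.71%. *Lcn2*, which encodes the iron-binding neutrophil gelatinase-associated lipocalin, held 0.0570% and 0.112%. No *Ltf* UMI was seen in 97 of 174 WT and 69 of 160 Cko members, whereas late immature neutrophils, which met the same limits except for *Ltf*, held a median of 0.627% and 0.611%. At the *Ltf* limit the highest members held 0.0982% and 0.0999%, and the lowest cells outside it 0.101% in both. A share of 4 to 5% for the 6 genes kept 15 WT and 32 Cko cells out, and 8 WT and 20 Cko members held 5 to 6%.

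**Figure D1:**
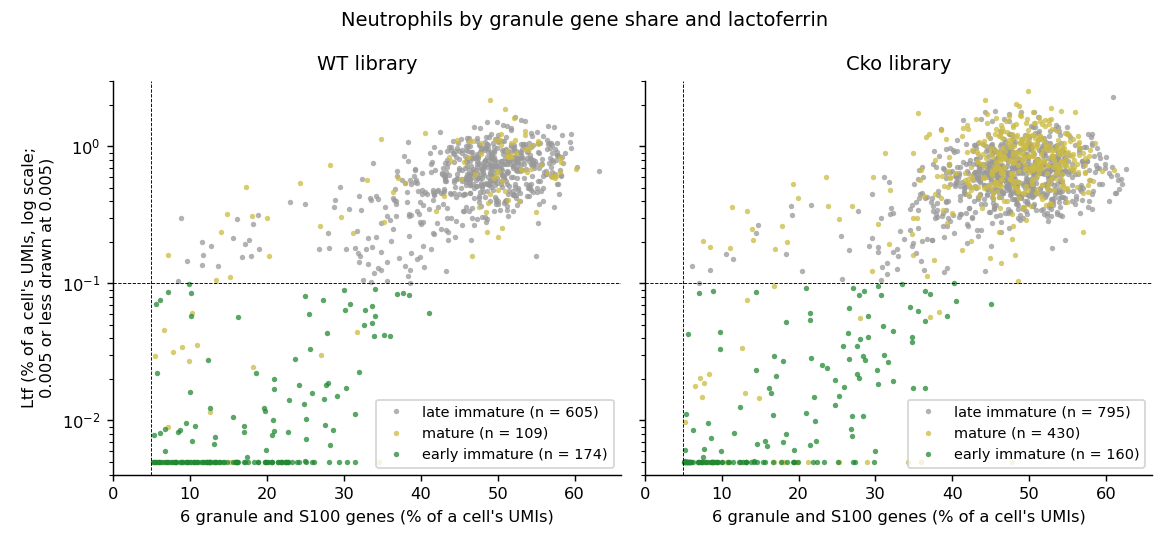
Share of each neutrophil's UMIs held by the 6 granule and S100 genes (x axis, %) and by *Ltf* (y axis, %, log scale, with 0.005 or less drawn at 0.005) in the WT library (left) and the Cko library (right); 1 point is 1 cell. The 174 WT and 160 Cko members (green) lie right of 5% and under 0.1%, mature cells with *Retnlg* and *Mmp8* are yellow, and late immature cells (grey) lie above the limit.

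The label was checked against *Fcnb*, *Chil3* and *Cebpe*, which the rule did not use. *Fcnb* UMIs were seen in 97.7% of WT and 98.8% of Cko members, at 2898 and 2370 CPM (a gene's UMIs per 1000000 UMIs of the cells named), which was 7.40 and 8.39 times the level in *Elane*-high progenitors and 1.87 and 1.92 times that in late immature neutrophils. *Cebpe*, the gene of C/EBPε, was seen in 96.6% and 93.1% of members at 989 and 1009 CPM, against 287 and 318 CPM in *Elane*-high progenitors and 1055 and 1157 CPM in late immature neutrophils. *Chil3*, a chitinase-like protein of the granules, had 3356 and 3632 CPM and was still 3.57 and 3.10 times higher in late immature neutrophils. With every cell thinned to 3000 UMIs, which left out no member and no B-lineage cell, *Fcnb* was seen in 96.6% of WT and 93.1% of Cko members but in 2.27% and 1.52% of B-lineage cells, which should lack it. The B-lineage cells were shallower, with a median of 5451 UMIs in the WT and 6658 in the Cko. In CPM, only *Fcnb* of the 3 markers was thus higher in members than in both neighbouring groups. By this measure *Cebpe* was close to its late level and *Chil3* had yet to reach it. These levels rest on each group's total, of which the granule genes of the rule take a larger part in late cells. Leaving these genes out of the totals would lower members relative to late cells. This was not computed for the markers, so whether *Fcnb* stays above and *Cebpe* close to the late level is not known. *Ly6g*, a surface antigen of later neutrophils, stood at 11.3 and 13.5 CPM in members against 292 and 354 CPM in late immature cells.

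As a description of cells picked by their expression, the 10 genes outside the rule that stood highest in members relative to all other cells were *Mgl2*, *Scnn1a*, *Fcnb*, *Tuba8*, *Elane*, *Cd63*, *Mogat2*, *Prss57*, *Tmem180* and *Gpx3*. *Mgl2*, a C-type lectin receptor, had 58.1 CPM in the WT and 42.9 CPM in the Cko, 14.6 and 10.4 times the other cells. *Scnn1a*, a subunit of the epithelial sodium channel, had 36.0 and 34.7 CPM, 14.4 and 7.53 times the other cells. *Cd63*, a membrane protein of primary granules, had 1569 and 1424 CPM, 11.6 and 5.31 times the other cells. *Mogat2*, an acyltransferase of triglyceride synthesis, was seen in 64.4% of WT and 42.5% of Cko members. *Gpx3*, a secreted glutathione peroxidase, had 95.6 and 113 CPM.

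Not all members matched the label. *Camp* and *Ngp* together held under 0.2% of the UMIs in 14 WT (8.05%, 4.47 to 13.1%) and 24 Cko members (15.0%, 9.85 to 21.5%), which had passed the rule on *S100a8* and *S100a9*. Of these, 6 WT and 18 Cko cells held at least 0.1% of UMIs in a list of 6 monocyte markers, against 0 of 160 and 4 of 136 of the other members. *F13a1*, coagulation factor XIII of monocytes, had 52.8 CPM in the WT and 334 CPM in the Cko cells of this subset and 6.55 and 12.8 CPM in the other members. *Lgals3*, galectin-3, had 783 and 2011 CPM against 53.0 and 54.2 CPM. Over all members the monocyte list came to 79.2 CPM in the WT and 204 CPM in the Cko, with a UMI for each of its 6 genes in both libraries. T-cell and NK-cell markers other than *Nkg7*, which these precursors express themselves, and markers of stromal cells were at or near 0. The mast, basophil and eosinophil list came to 24.7 and 42.4 CPM and the B-lineage list to 203 and 183 CPM.

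The members' own genes placed them between *Elane*-high progenitors (268 WT and 242 Cko cells, *Elane* at least 0.5% of UMIs and the 6 genes under 5%) and late immature neutrophils (605 and 795 cells). The 11 listed primary granule genes came to 43574 CPM in the WT *Elane*-high cells, 35172 in members and 2952 in late cells, and to 42166, 27330 and 2585 CPM in the Cko. Of these, *Elane*, neutrophil elastase, was at 16914 CPM in WT members and 11368 CPM in Cko members, 26.3 and 25.9 times the late cells. Because *Elane* also picked the *Elane*-high cells, the sum was repeated with the other 10 genes, which came to 27560 CPM in the WT *Elane*-high cells, 18257 in members and 2308 in late cells, and to 27583, 15962 and 2145 CPM in the Cko. The 13 listed later granule genes outside the rule went the other way, from 3518 through 16278 to 39719 CPM in the WT and from 3433 through 17789 to 38706 CPM in the Cko. Genes of the NADPH oxidase, the source of the respiratory burst, came to 2253, 4930 and 6120 CPM in the WT. Ribosomal protein genes held a median of 33.4% of UMIs in WT *Elane*-high cells, 23.1% in members and 6.12% in late cells.

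**Figure D2:**
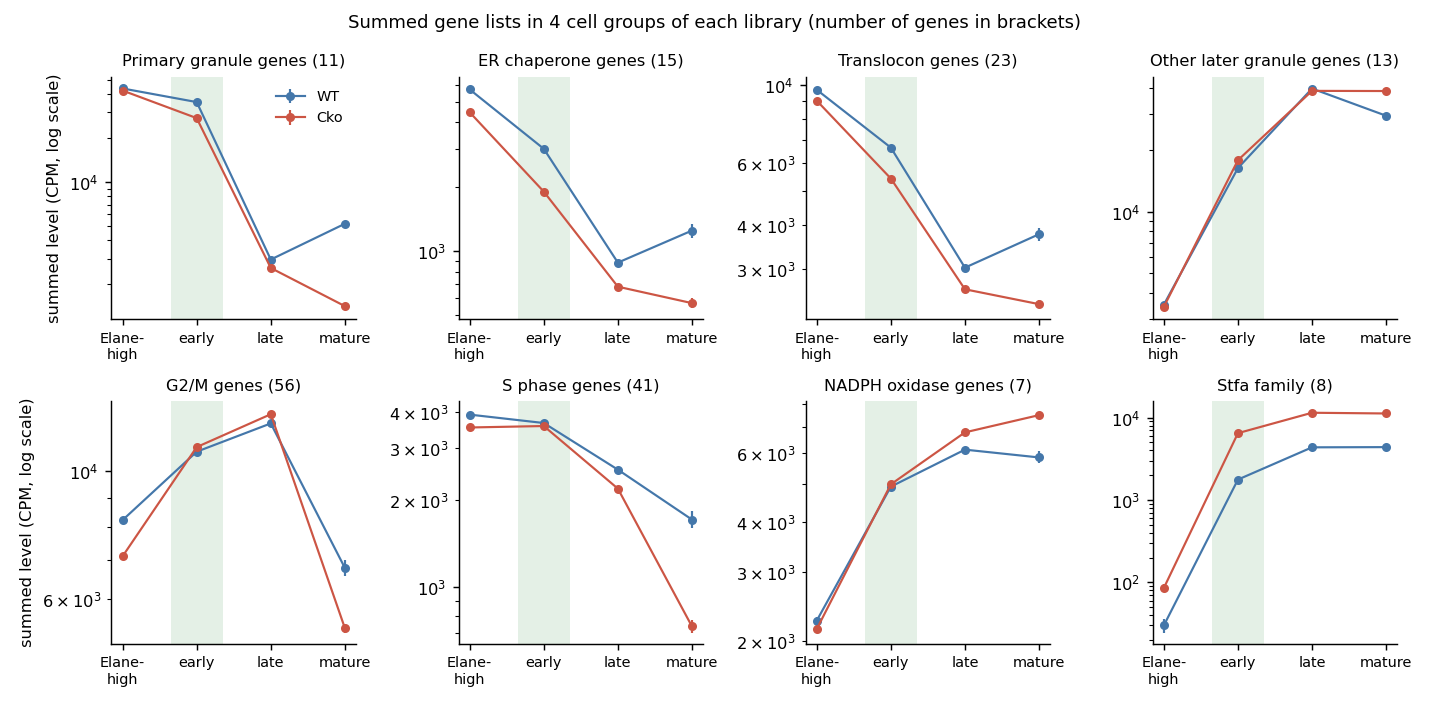
Summed level of 8 gene lists (y axis, CPM, log scale, with the exact 95% Poisson interval) in *Elane*-high, early immature (shaded), late immature and mature neutrophils of the WT (blue) and Cko (red) library. In members, ER chaperone genes came to 3010 CPM in the WT and 1896 CPM in the Cko, and the *Stfa* family to 1767 and 6467 CPM.

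Transcripts of dividing cells were frequent in members. *Top2a*, a topoisomerase of dividing cells, was seen in 81.0% of WT and 86.9% of Cko members and, after thinning, in 49.4% and 50.6%. *Mki67*, a proliferation antigen, was seen in 74.7% and 76.9% and, after thinning, in 35.1% and 34.4%. The 41 listed S-phase genes came to 3666 and 3580 CPM in members against 2536 and 2183 CPM in late cells. The 56 G2/M genes came to 10812 and 11013 CPM, 0.893 and 0.877 of the level in late cells. These summed levels rest on each cell group's total, of which the 6 granule and S100 genes take a larger part in late cells. With these genes and the *Stfa* family left out of the totals the G2/M ratio of members to late cells became 0.604 in the WT and 0.573 in the Cko. The S-phase sums were not recomputed in this way, so whether they were higher in members apart from the totals is not known. None of the 32 S-phase and 52 G2/M genes tested passed 2-fold between the genotypes. Of the 3228 genes compared below, only 1.64% (higher) and 0.496% (lower) did. For G2/M genes 4 intervals lay above 1 and 13 below, and for S-phase genes 3 and 3. Over all genes compared the shares were 10.2% above and 16.9% below. *Rrm2*, a subunit of ribonucleotide reductase, had a ratio of 0.986 (0.881 to 1.10). *Pcna*, the DNA polymerase clamp, had 1.24 (1.04 to 1.48).

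For the comparison of the genotypes, UMIs were summed over the members of each library, and 3228 genes listed in both libraries with at least 100 UMIs in all were compared. Of these, 53 (1.64%) were at least 2-fold higher and 16 (0.496%) at least 2-fold lower in the Cko members. The interval of the ratio lay above 1 for 330 genes (10.2%) and below 1 for 547 (16.9%), and the median log2 ratio was -0.05. In no comparison could the spread between mice be measured.

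**Figure D3:**
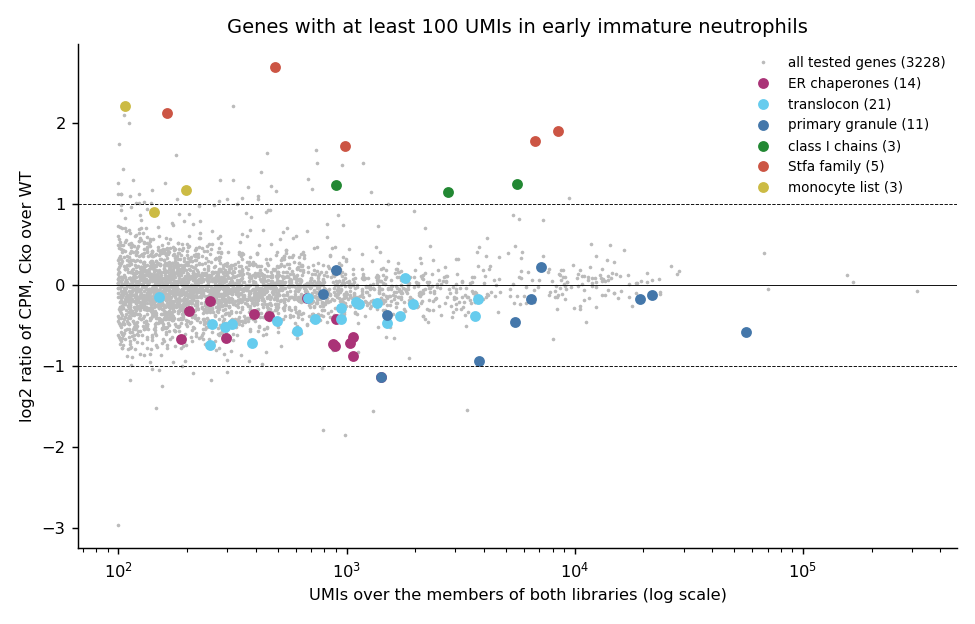
Log2 ratio of CPM, Cko over WT (y axis), against the UMIs over the members of both libraries (x axis, log scale) for the 3228 genes compared, with gene lists in colour and dashed lines at 2-fold. The 5 *Stfa* genes and 3 MHC class I chain genes lie above the upper line, and all 14 ER chaperone genes lie below 0.

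Primary granule genes were lower in the Cko members. Summed, they came to 35172 CPM in the WT and 27330 CPM in the Cko, a ratio of 0.777 (0.768 to 0.786), which became 0.874 (0.861 to 0.887) without *Elane*. The interval lay below 1 for 8 of the 11 genes tested and above 1 for 1, against 16.9% and 10.2% of the genes compared. The median log2 ratio was -0.17. *Elane* had a ratio of 0.672 (0.661 to 0.684), *Ctsg*, cathepsin G, 0.731 (0.693 to 0.771), and *Nkg7*, a granule membrane protein, 0.523 (0.489 to 0.559). *Mpo*, myeloperoxidase, and *Prtn3*, proteinase 3, were closer to even, at 0.891 and 0.921. *Serpinb1a*, an inhibitor of these proteases, was higher, with 1624 CPM in the WT and 1895 CPM in the Cko (1.17, 1.11 to 1.22). The only gene of this list past 2-fold was *Calr*, calreticulin, a calcium-binding chaperone that is also counted in the ER list. Per cell the list held a median of 3.46% of UMIs in WT and 2.39% in Cko members, and the ranges overlapped almost fully (0 to 9.78% and 0 to 7.06%). The ratio was 0.968 in *Elane*-high progenitors and 0.876 in late cells, and without *Elane* 1.0 and 0.929. In mature neutrophils it was 0.382 (0.360 to 0.406) without *Elane*, lower than in members.

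Later granule genes outside the rule were close to even as a sum (1.09, 1.08 to 1.11). Of 13 tested, 1 was over 2-fold higher, against 1.64% of the genes compared. Intervals lay above 1 for 8 and below 1 for 2, against 10.2% and 16.9%. *Orm1*, an acute-phase carrier protein, was the one past 2-fold, on 31 and 72 UMIs. *Lyz2*, lysozyme, had 2412 CPM in the WT and 3446 CPM in the Cko (1.43, 1.38 to 1.48). *Anxa1*, annexin A1, had 1251 and 1669 CPM (1.33, 1.27 to 1.41). *Fcnb* was lower (0.818, 0.787 to 0.850) and *Ltb4r1*, a leukotriene receptor, even (1.0, 0.895 to 1.12). *Lcn2*, which the rule used, had 934 and 1702 CPM. Of the 7 NADPH oxidase genes none passed 2-fold, as only 1.64% (higher) and 0.496% (lower) of the genes compared did. *Cybb*, its catalytic subunit, had a ratio of 1.15 (1.02 to 1.29), and *Rac2*, its regulator, 0.859 (0.814 to 0.907).

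Of 12 transcription factor genes tested, none passed 2-fold, as only 1.64% (higher) and 0.496% (lower) of the genes compared did. The intervals of 4 lay above 1 and of 1 below, against 10.2% and 16.9%. The one below was *Gfi1*, a repressor needed for granulocyte fate, with 72.0 CPM in the WT and 45.3 CPM in the Cko (0.629, 0.479 to 0.823). *Cebpe* was even (1.02, 0.959 to 1.09). *Spi1*, the gene of PU.1, had 386 and 427 CPM (1.11, 1.0 to 1.22). *Irf8*, a monocyte factor, had 24.7 and 46.3 CPM and was seen in 8.62% of WT and 16.3% of Cko members. Its ratio was 1.87 (1.31 to 2.71), and 1.98 without the members low in *Camp* and *Ngp*. Of 10 receptor and adhesion genes tested, 1 was over 2-fold higher, against 1.64% of the genes compared. This was *Lgals3*, whose log2 ratio of 1.31 became 0.03 without the same members.

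The ER chaperone genes, targets of ATF6 and of the unfolded protein response, were lower in the Cko members as a list. All 14 tested genes had a ratio under 1, and their median log2 ratio was -0.65. The interval lay below 1 for 11 of them and above 1 for none, against 16.9% and 10.2% of the genes compared. *Calr* had 490 CPM in the WT and 223 CPM in the Cko members (0.456, 0.407 to 0.510). *Pdia6*, a disulfide isomerase, had 346 and 189 CPM (0.547, 0.482 to 0.620), and *Hspa5*, the chaperone BiP, 279 and 166 CPM (0.595, 0.518 to 0.682). *Xbp1*, a transcription factor of the same response, had the ratio nearest to 1 but an interval that spanned it. Summed over the 15 listed genes the ratio was 0.630 (0.605 to 0.656). It was 0.782 in *Elane*-high progenitors, 0.771 in late immature and 0.457 in mature neutrophils, and 1.01 (0.976 to 1.04) in B-lineage cells. Each neutrophil group compared thus had a ratio under 1, and the B-lineage cells did not. These ratios were not tested against each other.

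The promoters of 4 of these genes are given because they hold the ER stress response element, to which ATF6 is known to bind together with NF-Y: *Hspa5* (GRCm38.p6 chr2:34771840-34772089, plus strand), *Hsp90b1* (chr10:86705445-86705694, minus strand), *Calr* (chr8:84846932-84847181, minus strand) and *Pdia6* (chr12:17266339-17266588, plus strand). They are the 250 bases before the start from RefSeq, 5′ to 3′, and capitals mark CCAAT and CCACG with any 9 bases between them, on either strand.
Hspa5: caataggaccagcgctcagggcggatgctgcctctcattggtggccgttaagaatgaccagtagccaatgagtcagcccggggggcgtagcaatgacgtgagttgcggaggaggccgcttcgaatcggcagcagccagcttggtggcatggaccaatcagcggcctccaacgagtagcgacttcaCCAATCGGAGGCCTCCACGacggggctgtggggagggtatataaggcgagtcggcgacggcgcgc
Hsp90b1: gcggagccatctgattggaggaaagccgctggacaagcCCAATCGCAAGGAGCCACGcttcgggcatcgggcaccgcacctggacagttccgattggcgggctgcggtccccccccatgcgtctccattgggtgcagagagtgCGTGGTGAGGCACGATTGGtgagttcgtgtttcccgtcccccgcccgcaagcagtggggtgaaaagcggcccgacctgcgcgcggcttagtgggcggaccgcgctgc
Calr: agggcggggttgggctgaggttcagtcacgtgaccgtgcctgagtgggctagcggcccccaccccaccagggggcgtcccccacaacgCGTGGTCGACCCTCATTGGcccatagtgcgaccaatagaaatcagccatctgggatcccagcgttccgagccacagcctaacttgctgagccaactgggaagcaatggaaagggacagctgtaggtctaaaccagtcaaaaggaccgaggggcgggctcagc
Pdia6: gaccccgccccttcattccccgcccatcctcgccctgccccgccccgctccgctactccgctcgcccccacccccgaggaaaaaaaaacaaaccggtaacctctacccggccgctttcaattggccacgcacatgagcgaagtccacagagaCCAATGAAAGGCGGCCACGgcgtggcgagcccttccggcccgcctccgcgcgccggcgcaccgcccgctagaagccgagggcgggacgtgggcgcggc
These letters were found in 37 of 32851 promoters of this length (0.113%), in 8 of 17 matched promoters of the ER chaperone list and in none of 20 promoters of translocon genes. The 7 tested chaperone genes with the letters had a median log2 ratio of -0.73, with 7 of 7 intervals below 1. The 7 tested without them or without a promoter entry had -0.38, with 4 intervals below 1. Whether an interval lies below 1 also depends on a gene's UMIs. The sets were not tested against each other, and a part of ATF6 in these ratios was not tested. No match in this window says nothing about sites elsewhere.

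Genes of the translocon and of signal peptide cleavage, through which granule proteins enter the ER, shifted less. The interval lay below 1 for 18 of 21 tested genes and above 1 for none, against 16.9% and 10.2% of the genes compared. No gene passed 2-fold, as only 1.64% (higher) and 0.496% (lower) of the genes compared did, and the median log2 ratio was -0.38. *Sec61g*, a subunit of the channel, had 1031 CPM in the WT and 794 CPM in the Cko (0.770, 0.721 to 0.822), and *Spcs3*, of the signal peptidase, 79.2 and 47.2 CPM (0.596, 0.458 to 0.773). *Srp9* was the only gene with a ratio over 1 (1.06, 0.965 to 1.16). The sum came to 6647 and 5428 CPM, a ratio of 0.817 (0.796 to 0.838), against 0.927 in B-lineage cells.

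Few sterol genes could be read. Of 31 SREBP target genes, 10 were listed in both libraries, 7 only in the WT and 2 only in the Cko, and 3 reached 100 UMIs. *Fdps*, farnesyl diphosphate synthase, had 264 CPM in the WT and 130 CPM in the Cko (0.490, 0.421 to 0.569), and *Fdps* UMIs were seen in 86.2% and 72.5% of members. Its ratio was 0.434 in *Elane*-high progenitors, 0.421 in late cells and 0.514 in B-lineage cells, so that it was not particular to the members. *Acly*, ATP citrate lyase, had 0.639 (0.427 to 0.947) and *Ebp*, a sterol isomerase, 0.831 (0.649 to 1.06). *Hmgcs1* and *Sqle* were listed in the WT library only and were not compared.

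**Figure D4:**
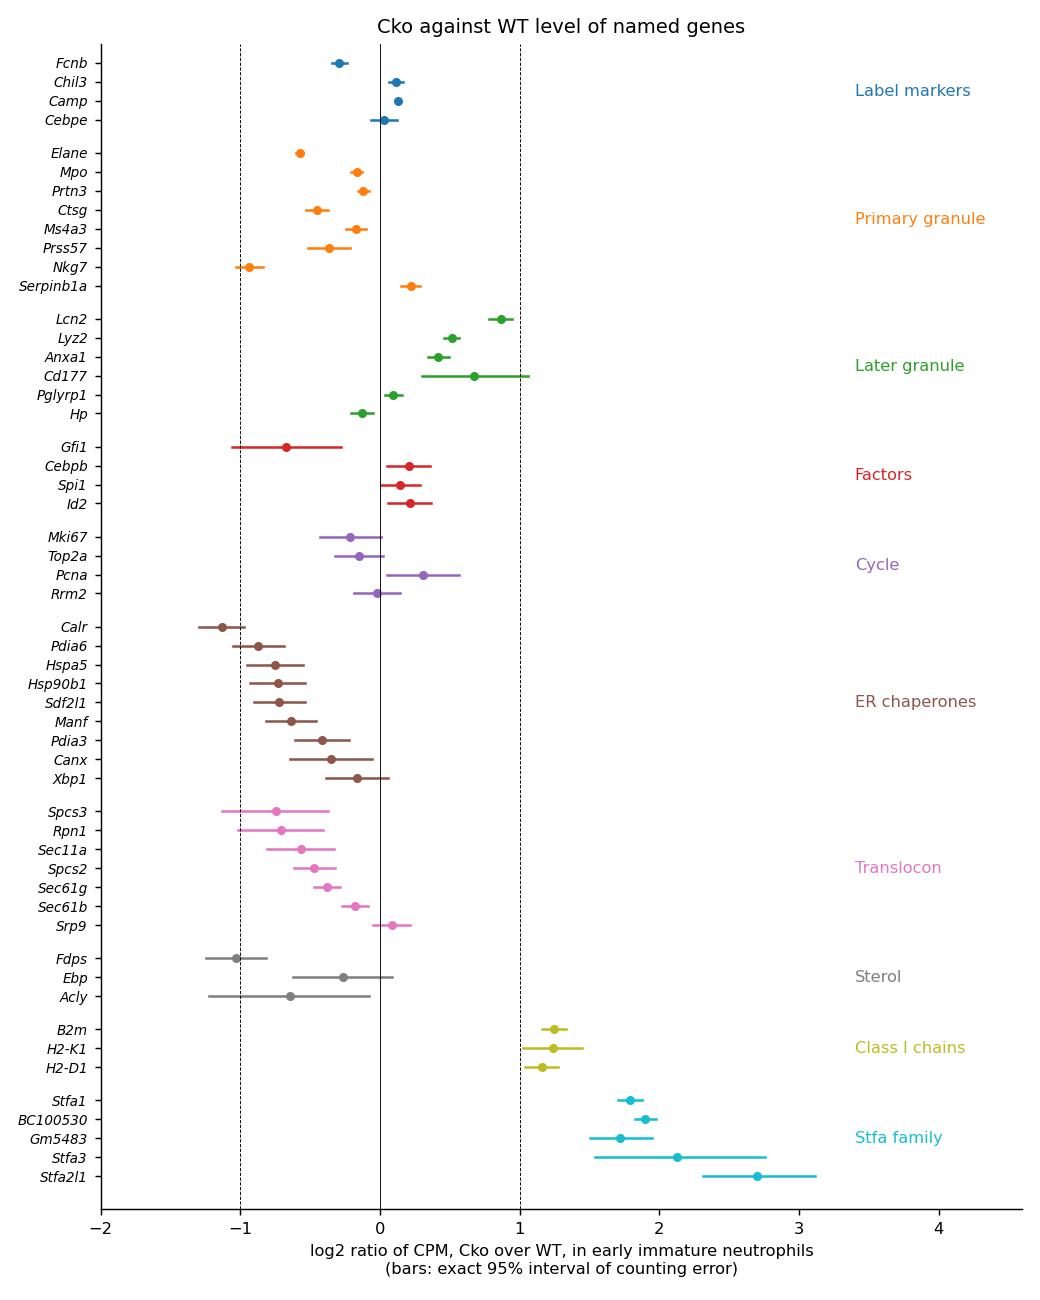
Log2 ratio of CPM, Cko over WT, in the members (x axis) for named genes grouped by role, with the exact 95% interval and dashed lines at 2-fold. *Calr* (0.456) and *Fdps* (0.490) lie past the lower line, and *B2m*, *H2-K1*, *H2-D1* and the *Stfa* genes past the upper.

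The *Stfa* genes, which encode stefin A inhibitors of cysteine proteases and lie together on chromosome 16, had high ratios as a family. All 5 tested genes were over 2-fold higher in the Cko, against 1.64% of the genes compared, with a median log2 ratio of 1.90. *BC100530* had 875 CPM in the WT and 3269 CPM in the Cko (3.74, 3.54 to 3.94), *Stfa1* 733 and 2532 CPM (3.46, 3.26 to 3.67), and *Stfa2l1* 31.4 and 204 CPM (6.50, 4.96 to 8.64). *Stfa2* had 0 UMIs in WT members, a count that allows up to 3, and 40 in Cko members. Because the genes are closely alike and can exchange reads, the sum is the safer value, with 1767 and 6467 CPM and a ratio of 3.66 (3.53 to 3.80).

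Within each library the family was carried by few members. In the WT 88 of 174 members had no *Stfa* UMI and 7 held over 1% of their UMIs in the family, and in the Cko 28 of 160 had none and 25 held over 1%. The highest member held 6.97% in the WT and 7.85% in the Cko, so the ranges overlapped, while the medians were 0% and 0.0372%. The member with the most *Stfa* UMIs gave 23.2% of the WT sum and 9.11% of the Cko sum. Without the highest member of each library the ratio became 4.36, without the 5 highest 7.57 (7.10 to 8.08) and without the 10 highest 7.0, so that its size depended on a few cells. In *Elane*-high progenitors the family was at 30.0 and 85.4 CPM and in late cells at 4352 and 11438 CPM. In B-lineage cells, which should lack it, it stood at 35.9 and 130 CPM, and *BC100530* was seen in 2.65% and 10.8% of them after thinning. The family's level in these cells was thus also higher in the Cko library. In both libraries it was above that of the *Elane*-high progenitors. In members *BC100530* was seen in 31.0% of WT and 67.5% of Cko cells, and in 20.7% and 46.3% after thinning.

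The members were also divided by the share of the 6 granule and S100 genes, leaving out those low in *Camp* and *Ngp*. In the WT 30 members held 5 to 10%, 59 held 10 to 20% and 71 at least 20%, and in the Cko 32, 40 and 64. Primary granule genes went from 44609 through 41855 to 23429 CPM in the WT and from 39673 through 36122 to 17016 CPM in the Cko, and were lower in the Cko in each bin. ER chaperone genes went from 4361 through 3432 to 1807 CPM in the WT and from 2625 through 2379 to 1207 CPM in the Cko, with ratios of 0.602, 0.693 and 0.668. Translocon ratios were 0.829, 0.823 and 0.820. The *Stfa* family went the other way, from 217 through 274 to 4138 CPM in the WT and from 1050 through 3226 to 12369 CPM in the Cko. The *Stfa* ratio was largest in the middle bin (11.8, 10.1 to 13.8) and smallest in the highest (2.99, 2.87 to 3.11). The ER chaperone ratio was under 1 and the *Stfa* ratio over 1 in each bin. The bins were cut on the share that the rule used, and the highest had no upper limit. Whether a bin held the same stages in both libraries was not tested.

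**Figure D5:**
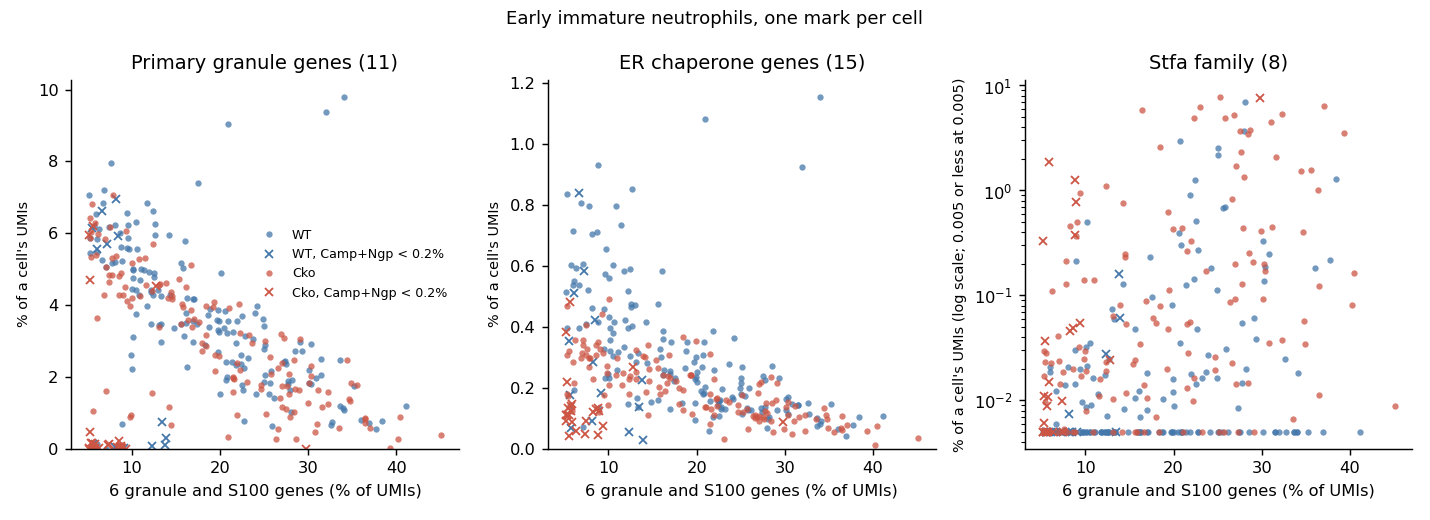
Share of each member's UMIs (y axes, %) in primary granule genes, ER chaperone genes and the *Stfa* family (log scale, with 0.005 or less drawn at 0.005) against the share of the 6 granule and S100 genes (x axis, %) in the WT (blue) and Cko (red); 1 mark is 1 cell and crosses are the 14 WT and 24 Cko members low in *Camp* and *Ngp*. Primary granule and chaperone shares fall from left to right, and members with over 1% in the *Stfa* family lie mostly to the right.

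*B2m*, *H2-K1* and *H2-D1*, the chains of MHC class I molecules that present peptides to T cells, were picked after their values were seen. *B2m* had 811 CPM in the WT and 1925 CPM in the Cko members (2.37, 2.24 to 2.52), *H2-D1* 425 and 948 CPM (2.23, 2.06 to 2.42), and *H2-K1* 132 and 311 CPM (2.36, 2.04 to 2.73). These values include the members low in *Camp* and *Ngp*, whose part in them is not given here. The *B2m* ratio was 1.88 in *Elane*-high progenitors, 1.64 in late cells, 1.26 in mature cells and 1.12 in B-lineage cells. Of the 9 genes tested in a list of the class I pathway, also put together after the values were seen, 5 had a ratio over 1 and 4 under 1, and these 3 chains were the genes whose intervals lay above 1. Over all genes compared, 10.2% of intervals lay above 1 and 16.9% below. The intervals of 2 class I pathway genes lay below 1. *Tapbp*, tapasin, which helps to load peptides, had 85.4 and 49.1 CPM (0.576), and *Psmb10*, a subunit of the immunoproteasome that makes them, 142 and 72.7 CPM (0.511). The intervals of the peptide transporter genes *Tap1* (0.831) and *Tap2* (1.09) and of the immunoproteasome genes *Psmb8* (0.916) and *Psmb9* (1.02) spanned 1.

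Among the single genes with the largest ratios, *Cap1*, an actin regulator, had 27.3 CPM in the WT and 127 CPM in the Cko members (4.67, 3.46 to 6.39). *F13a1* (4.63) and *Tgfbi* (4.29), a matrix protein of monocytes, were next to it, and the members low in *Camp* and *Ngp* gave 65 of the 89 *F13a1* UMIs and 57 of the 87 *Tgfbi* UMIs of the Cko. Without these members the ratios were 1.95 and 3.25, while that of *Cap1* was 4.52. The lowest ratios were those of *Gm26917* (0.128, 88 and 12 UMIs) and of the hemoglobin genes *Hbb-bt* (0.277), *Hba-a2* (0.289), *Hba-a1* (0.341) and *Hbb-bs* (0.343). Hemoglobin, which neutrophils do not make, held a median of 0.242% of a WT member's and 0.0610% of a Cko member's UMIs, and erythroid cells were more frequent in the WT library. The part of RNA from other cells in the ratios above was not tested.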

How the data were processed

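The Cko and the WT gave 1 library of BMCs each, made at day 21 with the Chromium Single Cell 3′ v2 kit. The authors aligned and counted the reads with Cell Ranger on GRCm38 per the labels, in a version not given in the sources used here, and deposited whole-number UMI counts per gene and barcode without normalization. These counts take 1 tag per molecule and are not scaled by gene length. The total row and column were dropped, and barcodes with at least 200 genes were kept (6271 of 6287 in the WT, 3662 of 3670 in the Cko). *Pde4d*, entered more than once, was summed. No column belonged to another series. Some genes of the lists are not reported here.

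UMIs were summed over the cells of a group and scaled to CPM by their total. Shares have exact binomial, levels exact Poisson and ratios exact conditional intervals at 95%. They cover counting error only, and no test was made with 1 library per genotype. A gene was compared if it was listed in both libraries with at least 100 UMIs over the members, and 2-fold was the limit used. Named genes were the listed genes of the fixed lists, the 5 highest and 5 lowest ratios, and the 10 genes highest in members over other cells (in at least 25% of members). The class I genes, *Rpl9-ps6*, *Rpl9*, *Rsrp1*, *Clk1*, *Tmsb10* and *H1f0* were named outside these sets, after the values were seen. The members, lists and limits were chosen with earlier results of these data known.

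Doublets called by Scrublet (scanpy 1.11.5, expected rate 5%) were kept. B-lineage cells held at least 0.3% of UMIs in 6 B-lineage genes. The alternatives were other scalings and limits, removal of doublets or of monocyte-marked cells and other denominators, and removal of members low in *Camp* and *Ngp* or of the highest *Stfa* member and a primary granule list without *Elane*, which were chosen after the data were seen. The ratio code was tested on simulated data. Promoters were taken from RefSeq for GRCm38.p6. The scripts ran under Python 3.11.15 with scipy 1.17.1 for intervals, numpy 2.4.6 and pandas 2.3.3 for sums, and matplotlib 3.10.9 for plots.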

Additional observations from a re-analysis of the deposited data

Results flagged for a closer look

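Most gene lists, and the named genes outside the rule and the *Stfa* family, were screened for opposite Cko/WT ratios in early and late immature neutrophils. Single genes also needed a larger shift in early cells, so smaller opposite shifts of genes are not counted. In 4 cases the ratio pointed in opposite directions, with both intervals away from 1. The difference itself was not tested. The 13 later granule genes outside the rule had a summed ratio of 1.09 in early and 0.975 in late immature neutrophils. *Irf8*, a factor of the monocyte lineage, had 1.87 in early and 0.517 in late cells. *S100a10*, a partner of annexin A2, had 2.31 in early and 0.519 in late cells, and its log2 ratio in early cells was 0.38 without the members low in *Camp* and *Ngp*. *Car1*, carbonic anhydrase 1 of red cell and basophil precursors, had 1.96 in early and 0.0880 in late cells, and 1 cell gave 53.4% of its WT and 73.2% of its Cko UMIs in early cells.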

How the results depend on the processing

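No paired analysis was possible because each genotype had 1 library. Limits of the members: there is 1 mouse per genotype, the class is cut from a continuous range of granule and *Ltf* shares, 22 WT and 24 Cko members held at least 0.05% *Ltf*, and 14 WT and 24 Cko members held under 0.2% of UMIs in *Camp* and *Ngp*. Genes near 100 UMIs have wide intervals.

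The share of members changed direction with the denominator, from a Cko/WT ratio of 1.57 over all cells to 0.905 over non-erythroid cells, 0.590 over all neutrophils and 0.546 over these without the members low in *Camp* and *Ngp*. The *Stfa* ratio of 3.66 stayed over 2 in each alternative. It was 3.80 with median-of-ratios scaling, 3.96 as a mean over cells, 3.81 with at least 10% granule genes, 3.35 with *Ltf* under 0.05%, 2.23 with hemoglobin under 0.2% and 4.36 without the highest member of each library. The hemoglobin limit of 0.2% lies below the WT members' median. The primary granule ratio of 0.777 was 0.807 with median-of-ratios scaling, 0.787 with totals that leave out the rule's genes and *Stfa*, 0.745 as a mean over cells, 0.793 with the *Ltf*, 0.683 with the hemoglobin and 0.819 with the *Camp* and *Ngp* limit, and 0.874 with *Elane* left out of the list. The ER chaperone ratio of 0.630 was 0.600 as a mean over cells, 0.661 with the granule limit of 10% and 0.598 with the hemoglobin limit, and the translocon ratio of 0.817 was 0.848 with median-of-ratios scaling and 0.788 with the hemoglobin limit. The G2/M ratio of the genotypes, 1.02, had no stable direction, at 1.06 with median-of-ratios scaling, 1.04 as a mean over cells, 0.962 with the granule, 1.06 with the *Ltf*, 0.922 with the hemoglobin and 0.984 with the *Camp* and *Ngp* limit.

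The G2/M ratio of early to late cells was 0.604 in the WT and 0.573 in the Cko with totals that leave out the rule's genes, and 0.930 and 0.860 with the granule limit. In the Cko it was also 0.906 as a mean over cells, 0.913 and 0.864 with *Ltf* under 0.05% and 0.2%, and 0.847 without the members low in *Camp* and *Ngp*. The count of genes at least 2-fold higher, 53, became 26 with the granule limit of 10%, and with at least 300 or 20 UMIs the higher and lower counts became 28 and 6 or 122 and 97, because fewer or more genes were compared. With the granule limit *Ctss* (0.587), *Lgals3* (0.831), *Ms4a6c* (0.601) and *S100a10* (0.625) turned below 1. Of the 25 named genes past 2-fold, 17 stayed past it with that limit, 18 without the members low in *Camp* and *Ngp*, and 20 to 25 in the other settings. The cause of these changes was not tested unless given.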

Other observations

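Genes annotated as pseudogenes took a larger part of the genes higher in the Cko members than of the genes compared. They were 31 of 3228 genes compared (0.960%) but 15 of the 53 genes at least 2-fold higher (28.3%), with a median log2 ratio of 0.93. A further 175 genes compared, 3 of them at least 2-fold higher, had no matching annotation, so these counts may not be full. *Rpl9-ps6*, a copy of a ribosomal protein gene, had 94.1 CPM in the WT and 268 CPM in the Cko, whereas its parent *Rpl9* had 3151 and 3346 CPM. Reads can pass between a copy and its parent, so these values are uncertain.

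*Cap1* was higher in the Cko library in each cell group compared and not only in the members, with ratios of 5.80 in *Elane*-high progenitors, 5.36 in late immature neutrophils, 6.15 in mature neutrophils and 4.92 in B-lineage cells. The *H2-K1* ratio was 1.88 in *Elane*-high progenitors and 2.64 in late immature neutrophils. *Rsrp1* and *Clk1*, both linked to RNA splicing and picked after the values were seen, were 2.0 and 2.02 times as high in the Cko members. *Tmsb10*, an actin-binding thymosin, had 418 and 909 CPM, and *H1f0*, a linker histone of cells that stop dividing, 85.9 and 273 CPM. The *Tmsb10* and *H1f0* values include the members low in *Camp* and *Ngp*, whose part in them is not given here. *Fos*, an immediate early gene, had 11.3 and 38.1 CPM on 22 and 79 UMIs, while *Ier2*, of the same class, was even at 153 and 150 CPM.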
